A study of Mus musculus with 9 samples.

Results

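The genes described here are 10 regulators of the G1 phase of the cell cycle, measured in the tibialis anterior muscle of mice with Affymetrix arrays. They are the cyclin-dependent kinase (CDK) inhibitors Cdkn1a (p21), Cdkn1b (p27) and Cdkn1c (p57), the stress-response genes Gadd45a, Gadd45b and Gadd45g, and the cyclin genes Ccnd1, Ccnd2, Ccne2 and Ccng1. They were chosen by name with earlier results of these arrays known. Cdkn1a, Cdkn1b, Gadd45b, Ccnd1 and Ccne2 had also been selected on the difference between DEX-injected and control mice, as members of a FoxO3 gene list drawn from these same arrays. The values of DEX against control are therefore a description, and no p-value is given for them. Of the 45037 probe sets left after manufacturer controls, 24 carried exactly 1 of these symbols, and all 24 passed the filter on low signal. A probe set is a group of oligonucleotides read out as 1 signal, and its name from the array is given below where a gene has more than 1.

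All 9 mice were 15-week-old C57BL/6J males, with 3 mice and 3 arrays in each of 3 groups. The control group ate an AIN93-based diet and received 0.9% saline. The DEX group ate that diet and received dexamethasone (DEX), a synthetic glucocorticoid, at 5 mg/kg of body weight. The DEX + TE group received the same DEX dose on a diet with 2% turmeric extract (TE). Injections were intraperitoneal, once a day for a week, and began 5 d after the diets, although the sample titles place turmeric after DEX. No group with TE alone was analysed here, so TE is compared only within DEX-injected mice. Per the study's methods, mice near the average body and muscle weight of their group were taken for the arrays. The muscle fiber genes Tnnt3, Tnni2 and Mylpf averaged 77867, 73304 and 72229 in the control group, and none of 10 fiber markers was below a signal of 50 on all arrays.

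The G1 phase ends when cyclin D with Cdk4 or Cdk6, and then cyclin E with Cdk2, phosphorylate the retinoblastoma protein and release E2F transcription factors. p21, p27 and p57 bind these complexes and restrain them, and p21 is a classic target of p53, FoxO factors and glucocorticoids. GADD45 proteins bind p21, PCNA and the kinase Map3k4, through which they feed stress signals to p38 and JNK. Nuclei of adult muscle fibers do not divide, so these genes are known in muscle mainly for cell cycle exit and for responses to denervation, disuse and other atrophy stimuli.

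The promoters of the genes whose signals differed most between groups are shown so that their sequence features can be set beside the values. RefSeq promoter windows (GRCm38.p6, 250 bases before to 50 after the start) were given for 6 of the 10 genes, in 7 windows, since Cdkn1a has a pair of starts. The 150 bases before each start are printed 5′ to 3′ on the strand of the gene. Capitals mark TATAA, or in the first sequence a match to the p53 consensus.
Cdkn1a, upstream start, chr17:29090829-29090978 (+ strand): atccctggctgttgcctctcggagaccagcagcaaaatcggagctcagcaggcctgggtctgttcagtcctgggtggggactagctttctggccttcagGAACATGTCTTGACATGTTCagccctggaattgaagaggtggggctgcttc
Cdkn1a, downstream start, chr17:29093619-29093768 (+ strand): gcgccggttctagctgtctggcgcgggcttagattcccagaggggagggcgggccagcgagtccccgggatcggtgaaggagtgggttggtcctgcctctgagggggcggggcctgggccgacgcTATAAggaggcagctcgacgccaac
Gadd45b, chr10:80929941-80930090 (+ strand): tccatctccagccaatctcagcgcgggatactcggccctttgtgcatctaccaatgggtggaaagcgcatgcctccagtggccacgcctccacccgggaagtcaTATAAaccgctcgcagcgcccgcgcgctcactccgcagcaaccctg
Gadd45g, chr13:51846525-51846674 (+ strand): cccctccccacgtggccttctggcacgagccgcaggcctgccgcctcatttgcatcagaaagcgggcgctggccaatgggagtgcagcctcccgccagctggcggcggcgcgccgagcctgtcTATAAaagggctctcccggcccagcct

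The p53 match in the upstream Cdkn1a window began 51 bases before the start and differed from the 20-base consensus at 1 position. Ccng1, another classic p53 target, had such a match 195 bases before its start, and 0.0883% of all 32851 windows held one. TATAA, the core of a TATA box, stood on the gene's own strand within 50 bases before the start in 3 of the 7 windows, against 4.93% of all windows. It began 25 bases before the downstream Cdkn1a start, 46 bases before that of Gadd45b and 27 bases before that of Gadd45g. Both of these searches were added after the windows had been read, so their counts are a description. Of the motifs of the first search, made on both strands, 0 of the 7 windows held the glucocorticoid receptor half-site AGAACA, the FoxO site TGTTTAC or the E2F sites TTTCCCGC and TTTGGCGC. These letters were present in 19.0%, 3.65% and 1.56% of all windows.

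Of the CDK inhibitors, p21 stood apart. Its brightest probe set, 1424638_at, had linear signals of 652, 559 and 725 on the control arrays, 3849.6, 2071 and 1503 on the DEX arrays and 1422, 1376 and 1611 on the DEX + TE arrays. All DEX and all DEX + TE arrays were above every control array, and the first DEX array was the highest. The means were 645 ± 83.3, 2475 ± 1224 and 1469.5 ± 124 (mean ± SD, n = 3 each). On the log2 scale, DEX exceeded control by 1.83 ± 0.32 (SE), a 3.57-fold ratio of geometric means. The other Cdkn1a probe set, 1421679_a_at, read 504, 456 and 518 on the control arrays, 3414, 2009 and 1473 on the DEX arrays and 1283, 1214 and 1303 on the DEX + TE arrays. It gave the same order, with a log2 difference of 2.14 ± 0.27 between DEX and control, 4.4-fold. Here the DEX + TE arrays lay between the groups without overlap, above all controls and below all DEX arrays. In whole muscle, fewer cells of a type and less RNA per cell cannot be told apart.

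p27 and p57 did not share that pattern. The bright Cdkn1b probe set 1434045_at read 4223, 3879 and 4113 on the control arrays, 4125, 3616 and 3749 on the DEX arrays and 4256, 3642 and 3714 on the DEX + TE arrays, with all groups overlapping. Its log2 difference between DEX and control was -0.090 ± 0.11. The dimmer Cdkn1b probe set 1419497_at read 656, 202 and 247 on the control arrays, 205, 662 and 816 on the DEX arrays and 820.3, 785 and 840.4 on the DEX + TE arrays. Within the control and DEX groups these values differed by over 3-fold between mice, and the probe sets of this gene differed in sign for DEX against control. Cdkn1c, an inhibitor best known as an imprinted gene of embryonic tissues, read 1256, 1025 and 1064 on the control arrays, 701, 838 and 836 on the DEX arrays and 992, 979.9 and 872 on the DEX + TE arrays. Every DEX array was below every control array, at -0.49 ± 0.13 on the log2 scale, and the DEX + TE arrays lay between them without overlap with either group.

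**Figure D1:**
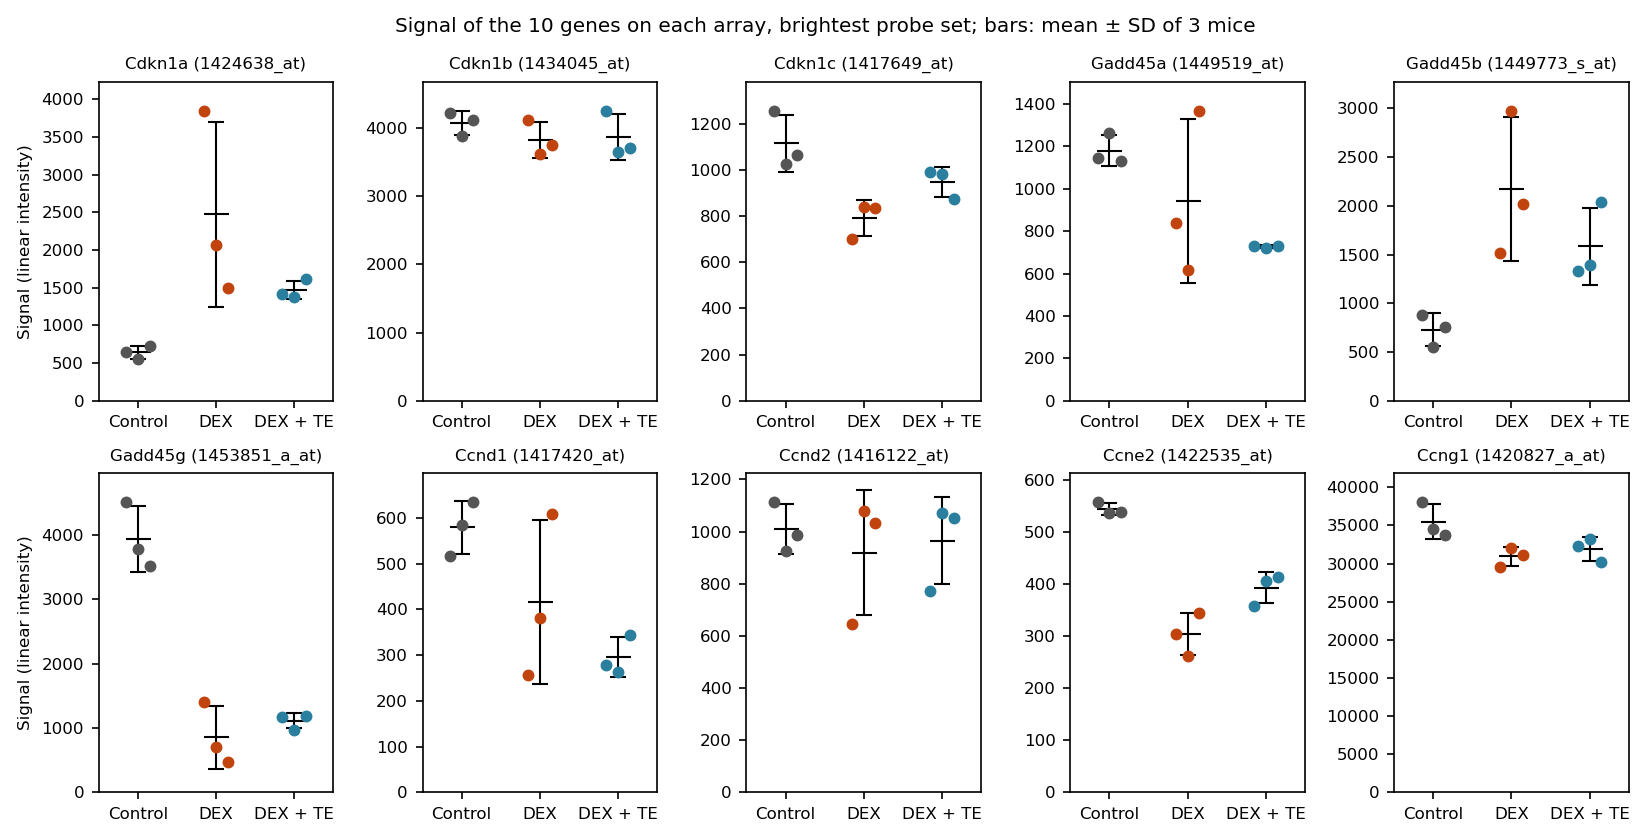
Linear signal (y axis) of the brightest probe set of each of the 10 genes on the 9 arrays, with mice 1 to 3 of a group from left to right and bars for mean ± SD (n = 3). Cdkn1a and Gadd45b are higher, and Cdkn1c, Gadd45g, Ccne2 and Ccng1 lower, on all DEX and DEX + TE arrays than on all control arrays.

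The GADD45 genes went in different directions. Gadd45b read 881, 552 and 759 on the control arrays, 1521, 2978 and 2023 on the DEX arrays and 1331, 1389 and 2041 on the DEX + TE arrays with probe set 1449773_s_at. All DEX and DEX + TE arrays were above all controls. The log2 difference between DEX and control was 1.54 ± 0.30, 2.92-fold, and it was 1.25 ± 0.30 with probe set 1450971_at. The dim Gadd45b probe set 1420197_at had overlapping groups and a difference of 0.12 ± 0.38. Gadd45g had the largest log2 difference of the 24 probe sets. Its signal was 4511, 3786 and 3523 on the control arrays, 1409, 698 and 466 on the DEX arrays and 1172, 977 and 1194 on the DEX + TE arrays. No DEX-injected mouse reached the lowest control value. The means were 3940.0 ± 511, 858 ± 491 and 1114 ± 119.6 (mean ± SD, n = 3 each), and DEX was -2.35 ± 0.36 from control on the log2 scale, 5.08-fold lower. Gadd45a, the member of the family best known in denervated muscle, read 1145, 1263 and 1129 on the control arrays, 839, 617 and 1368 on the DEX arrays and 728, 719 and 732 on the DEX + TE arrays. The third DEX mouse was above all controls and the other DEX mice below them, so that these groups overlapped, with a difference of -0.40 ± 0.26. The DEX + TE arrays agreed closely with each other and were all below control.

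Cyclin D1, the cyclin most tied to growth factor signals, was variable in the DEX group. Ccnd1 read 518, 585 and 635 on the control arrays, 256, 382 and 609 on the DEX arrays and 279, 263 and 344 on the DEX + TE arrays with its brightest probe set, 1417420_at. The third DEX mouse was within the control range and the first DEX mouse was lowest of all arrays. The DEX against control difference was -0.56 ± 0.30, and -0.45 ± 0.31 and -1.07 ± 0.41 with the dimmer probe sets 1448698_at and 1417419_at. The third DEX mouse was thus highest of its group for both Ccnd1 and Gadd45a and lowest for Cdkn1a. Cyclin D2, measured by 7 probe sets, had overlapping DEX and control groups in all 7, with differences from -0.31 to 0.070. The brightest, 1416122_at, read 1113, 926 and 985 on the control arrays, 645, 1079.7 and 1033 on the DEX arrays and 774, 1069.5 and 1053 on the DEX + TE arrays.

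Cyclin E2 is a partner of Cdk2 at the end of G1. Ccne2 read 558, 537 and 539 on the control arrays, 305, 263 and 344 on the DEX arrays and 359, 407 and 415 on the DEX + TE arrays, with means of 545 ± 11.6, 304 ± 40.8 and 394 ± 30.1 (mean ± SD, n = 3 each). All DEX arrays were below all controls, with a log2 difference of -0.85 ± 0.12, 1.8-fold lower, and the DEX + TE arrays filled the gap between the groups without overlap. Cyclin G1, a p53 target that associates with a phosphatase, differed little between groups. Ccng1 read 38055, 34578 and 33719 on the control arrays, 29598, 32074 and 31128 on the DEX arrays and 32286, 33209.8 and 30213 on the DEX + TE arrays. Its DEX arrays were all below the controls, with a log2 difference of -0.20 ± 0.10, while its other probe sets overlapped and differed by -0.042 and 0.11.

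**Figure D2:**
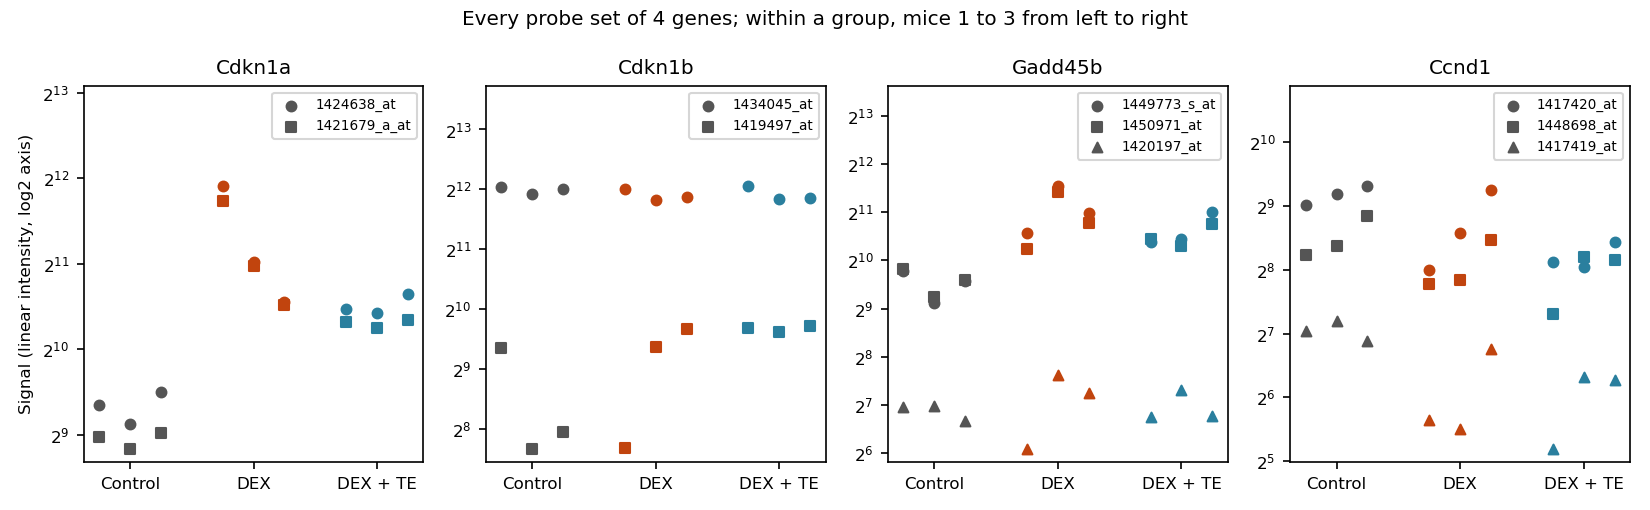
Linear signal on a log2 axis (y) of every probe set of Cdkn1a, Cdkn1b, Gadd45b and Ccnd1 on the 9 arrays, with mice 1 to 3 of a group from left to right. Both Cdkn1a probe sets show the same order of mice within the DEX group, while those of Cdkn1b differ in level and in pattern.

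A probe set was called when limma's Benjamini-Hochberg adjusted p over all 29269 probe sets tested was under 0.05 and the log2 difference was at least 0.6 in size. For DEX against control, 2 of the 24 probe sets were called, Cdkn1a 1421679_a_at higher and Ccne2 lower, where 0.502% of all probe sets tested were called. The groups did not overlap in 9 of the 24, 4 higher and 5 lower, against 21.2% of all. Because this contrast was known when the genes were chosen, nothing is read from these counts. When any 1 control array, any 1 DEX + TE array or the second DEX array was left out, no member was called, and the calls over all probe sets fell from 147 to between 51 and 79. Rank Product, the kind of test the study's methods name, run here on the deposited intensities, called 0 of the 24, against 0.28% of all. The study's own Rank Product, on values it describes as RMA-normalized, had listed Cdkn1a, Gadd45b and Cdkn1b as higher and Ccnd1 and Ccne2 as lower. For Cdkn1b, the bright probe set here was at -0.090 and the dimmer one at 0.59. Why the outcomes differ was not tested. Unadjusted p-values were under 0.05 for 14.4% of all probe sets in this contrast.

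Whether TE supplementation changed these genes in DEX-injected mice is the comparison of DEX + TE with DEX. limma called 0 of the 24 probe sets, where 0.0137% of all were called (4 of 29269), and Rank Product called 0 of 24, against 0.12% of all. Before adjustment, limma's p was under 0.05 for 1 higher, Ccne2, and 1 lower, Cdkn1a 1421679_a_at, where 7.76% of all probe sets were under it. The adjusted p-values from limma ran from 0.56 to 0.991. The groups did not overlap in 3 of the 24, which is 12.5%, against 14.8% of all probe sets, so the members did not exceed the background in this comparison. These 3 were Cdkn1a 1421679_a_at, Cdkn1c and Ccne2.

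For p21, DEX + TE differed from DEX by -0.77 ± 0.27 on the log2 scale with probe set 1421679_a_at (limma adjusted p = 0.584). The 95% interval was -1.41 to -0.13, without adjustment for the number of probe sets. With 1424638_at the difference was -0.64 ± 0.32, with an interval of -1.38 to 0.10 and an adjusted p by limma of 0.687. Without the first DEX array, the difference for 1424638_at was -0.27. For Ccne2 the difference was 0.38 ± 0.12, with an interval of 0.088 to 0.67 and an adjusted p by limma of 0.56. For Cdkn1c it was 0.26 ± 0.13, with an interval of -0.037 to 0.56 and an adjusted p by limma of 0.686. In each of these genes the DEX + TE mean was on the control side of the DEX mean, but none passed the test. The DEX arrays compared here are those on which Cdkn1a and Ccne2, and below Cdkn1b, Gadd45b and Ccnd1, had been selected. A DEX + TE mean on the control side can follow from such a selection alone, so nothing is read from it for these genes. With the arrays centred on their medians, which moved the median over all probe sets in this comparison from 0.05 to -0.21, Cdkn1c was at 0.0084 and Ccne2 at 0.13.

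The other members had overlapping DEX and DEX + TE groups. Gadd45b (1449773_s_at) differed by -0.43 ± 0.30, interval -1.13 to 0.27, with a limma adjusted p of 0.774. Gadd45g differed by 0.53 ± 0.36, interval -0.33 to 1.38, with a limma adjusted p of 0.773. Gadd45a and Ccnd1 (1417420_at) differed by -0.30 ± 0.26 and -0.41 ± 0.30, away from the control side, with limma adjusted p-values of 0.817 and 0.776. Cdkn1b (1434045_at) had a difference of 0.014 ± 0.11 and an interval of -0.23 to 0.26. With its dimmer probe set 1419497_at the difference was 0.76 ± 0.60, interval -0.64 to 2.16, with a limma adjusted p of 0.797. The 7 Ccnd2 probe sets were all higher by value, from 0.014 to 0.46, and those of Ccng1 ran from -0.057 to 0.044. The intervals for Gadd45b, Gadd45g, Ccnd1 (1417420_at, -1.10 to 0.28) and Cdkn1b 1419497_at reached past a 2-fold difference and so did not exclude one. Some other probe sets of these genes did so too, such as Ccnd2 1416123_at at -0.11 to 1.03. Single arrays moved these values: Gadd45b was at -0.17 without the second DEX array, and Gadd45g at 0.16 and Ccnd1 at -0.091 without the third.

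DEX + TE was also compared with control, using the same control arrays as the contrast known when the genes were chosen. limma called 0 of the 24 probe sets, against 0.379% of all, and Rank Product called 0, against 0.441% of all. Before adjustment, limma's p was under 0.05 for 4 higher and 5 lower, which is 9 of 24, where 13.8% of all probe sets were under it. The groups did not overlap in 14 of the 24 (58.3%), 6 higher and 8 lower, against 22.7% of all probe sets. The 14 include 3 probe sets of Ccnd1, 2 of Cdkn1a and 2 of Gadd45b. Because the control arrays are shared with the known contrast, nothing is read from these counts. The lowest adjusted p-values by limma were 0.108 for Gadd45g, at -1.82 ± 0.36, and 0.108 for Cdkn1a 1421679_a_at, at 1.36 ± 0.27. The first DEX array enters this comparison only through the shared estimate of spread and the filter on low signal. Without it both of these were called, and 2 of 24 were called in all, while the calls over all probe sets fell from 111 to 87. Gadd45b (1449773_s_at) differed from control by 1.12 ± 0.30 and Ccne2 by -0.47 ± 0.12, with adjusted p-values by limma of 0.187 and 0.182. Gadd45a and Ccnd1 (1417420_at), which overlapped between DEX and control, did not overlap between DEX + TE and control, at -0.70 ± 0.26 and -0.97 ± 0.30, with limma adjusted p-values of 0.31 and 0.231.

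**Figure D3:**
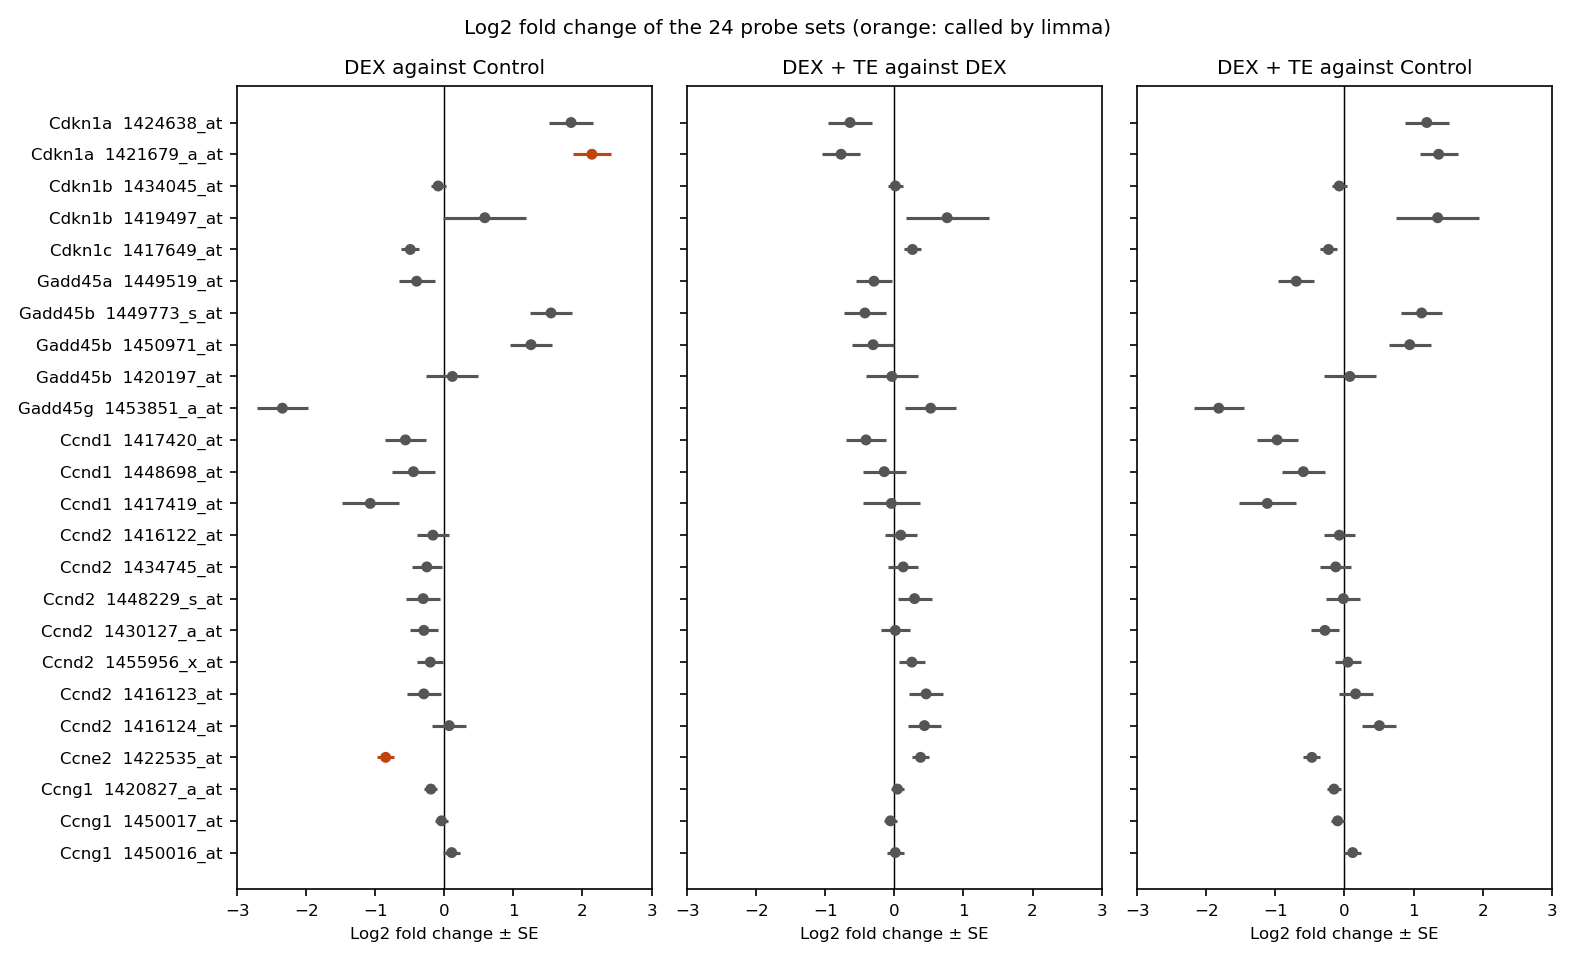
Log2 fold change ± SE (x axis) of the 24 probe sets in each of the 3 comparisons, from limma on all 9 arrays, with called probe sets in orange. Differences between DEX + TE and DEX are smaller than those of either group from control for Cdkn1a, Gadd45b and Gadd45g, and 0 are called there.

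The other genes of these pathways were read with 1 probe set per gene, the brightest, in lists written with earlier results known. Of the G1/S machinery (CDKs, cyclins, the retinoblastoma family, E2F factors and their partners), 29 of 30 genes were tested and 0 were called in any comparison, by limma or by Rank Product. Before adjustment, the p was under 0.05 for 3 higher and 3 lower in DEX against control, 4 and 1 in DEX + TE against DEX, and 3 and 1 in DEX + TE against control. The shares of all 13691 genes called were 0.599%, 0.0073% and 0.453% by limma and 0.212%, 0.102% and 0.336% by Rank Product, in that order. Unadjusted p-values under 0.05 made up 15.3%, 7.46% and 14.5% of all genes, and the counts of these lists are to be read against those shares. The list medians were -0.06, 0.03 and 0.04 on the log2 scale, beside -0.03, 0.04 and 0.02 over all genes. The largest DEX against control values were those of Ccne1, the other cyclin E, at -2.03 ± 0.70 (limma adjusted p = 0.252), of the transcription factor Myc at -1.37 ± 0.56 and of Skp2, which targets p27 for degradation, at -1.10 ± 0.67. Their signals were low, with Ccne1 at 152, 96.8 and 121 in controls against 75.6, 33.0 and 10.4 after DEX.

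Of the p53 pathway, 22 of 28 genes were tested and 0 were called in any comparison by limma or Rank Product. Unadjusted p-values under 0.05 numbered 5 higher and 2 lower for DEX against control, 1 and 2 for DEX + TE against DEX, and 6 and 3 for DEX + TE against control. The medians were 0.08, -0.13 and -0.00. Eda2r, a TNF receptor family member known as a p53 target in muscle, was at 1.02 ± 0.24 in DEX against control, the death receptor Fas at -0.84 ± 0.32 and Trp53inp1 at -0.78 ± 0.29, with limma adjusted p-values of 0.122, 0.292 and 0.29. Mdm2, the main feedback inhibitor of p53, was named after its value was seen: it was at -0.0055 ± 0.16. Of the 22 genes tested, 14 were higher and 8 lower by value in DEX against control, where the median over all genes was -0.03. The groups did not overlap for 7 higher and 2 lower, where 21.2% of all probe sets did not overlap. That share counts every probe set, while the list holds 1 per gene. The same counts were 5 and 3 of 29 genes for the G1/S machinery. They were 2 and 1 of 11 for the GADD45 partners and 3 and 3 of 23 for the regulators described below. By value, 12 were higher and 17 lower, 6 and 5, and 10 and 13 in these lists.

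Of the GADD45 partners, 11 of 16 were tested and 0 were called in any comparison by limma or Rank Product. Unadjusted p-values under 0.05 numbered 1 higher and 0 lower in DEX against control, 0 in either direction in DEX + TE against DEX, and 1 higher in DEX + TE against control. The medians were 0.03, -0.03 and -0.02. The 1 was Map2k3, the kinase above p38, at 8645, 7354 and 7497 on the control arrays, 12119.9, 11578 and 10854 on the DEX arrays and 11038, 12344 and 10898 on the DEX + TE arrays. Both DEX-injected groups were above all controls, at 0.56 ± 0.11 for DEX (limma adjusted p = 0.0889), and they overlapped each other. Map2k6 and Mapk9 (JNK2) were at -0.28 ± 0.20 and -0.24 ± 0.14.

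Of 23 regulators known to act on p21 or Gadd45 genes or to report glucocorticoid action, 1 rose in DEX against control, 0 were called in DEX + TE against DEX, and 1 rose and 1 fell in DEX + TE against control. Rank Product called 0 in each. In the same order of comparisons, unadjusted p-values under 0.05 numbered 3 higher and 4 lower, 2 higher and 1 lower, and 5 higher and 4 lower. The medians were -0.07, 0.01 and 0.04. Fkbp5, a chaperone of the glucocorticoid receptor that the receptor itself induces, read 1303, 950.4 and 1235 on the control arrays, 7827, 5090.4 and 4255 on the DEX arrays and 4479, 3897 and 4326 on the DEX + TE arrays. It rose by 2.26 ± 0.24 with DEX (limma adjusted p = 0.0134) and by 1.88 ± 0.24 in DEX + TE against control (limma adjusted p = 0.0314), and DEX + TE overlapped DEX. Its order of mice within the DEX group was that of Cdkn1a. Cebpb, a transcription factor of stress and fat cell programmes, fell in DEX + TE against control, at -0.95 ± 0.11 (limma adjusted p = 0.0282), and was at -0.69 ± 0.11 in DEX against control (limma adjusted p = 0.0585). When any 1 control array, any 1 DEX + TE array or the second DEX array was left out, no gene of these lists was called for DEX + TE against control, and without the second or the third control array none was called for DEX against control.

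Named after their values were seen, Foxo3 was at 0.58 ± 0.32 and Foxo1 at -0.24 ± 0.22 in DEX against control, with limma adjusted p-values of 0.455 and 0.666. Tsc22d3 and Per1, both classic glucocorticoid-induced genes, were lower by value in DEX, at -0.80 ± 0.14 and -1.38 ± 0.23, with limma adjusted p-values of 0.0685 and 0.0609. Fkbp5 and these genes were thus on opposite sides of control on the same arrays.

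**Figure D4:**
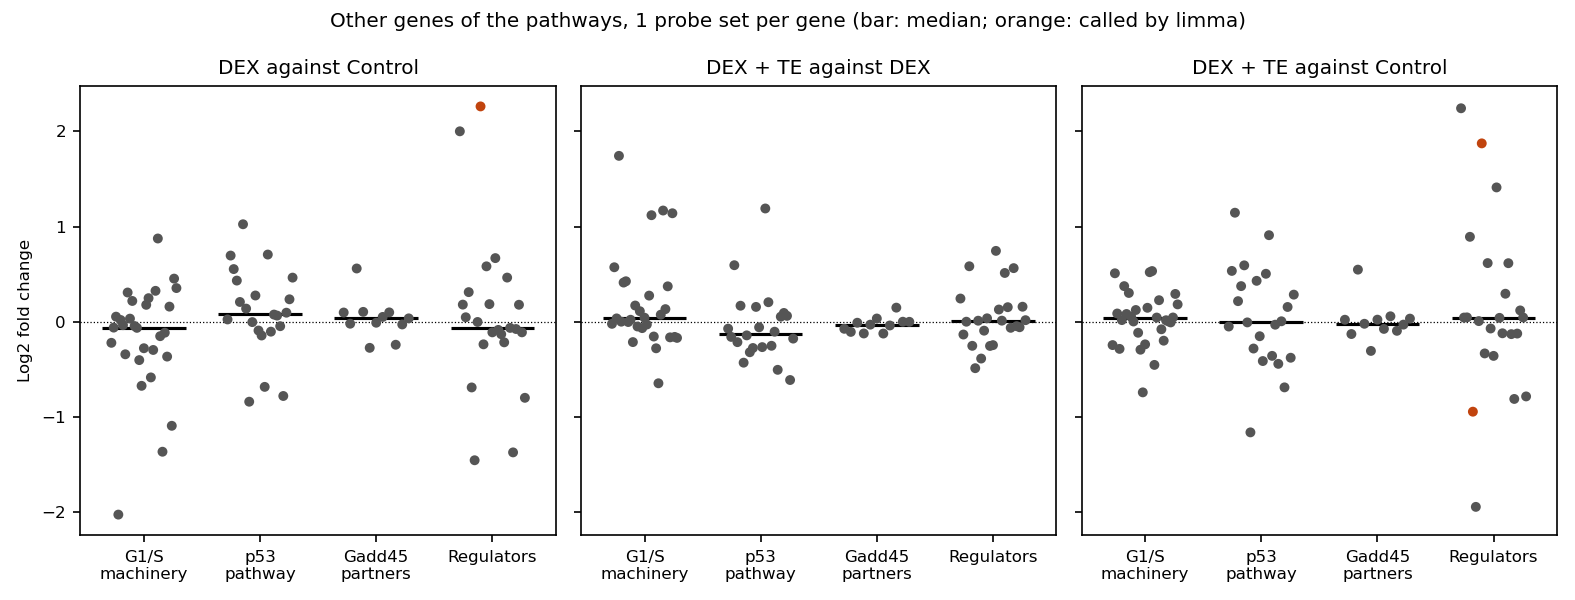
Log2 fold change (y axis) of each tested gene of 4 pathway lists in the 3 comparisons, with a bar at the list median and called genes in orange. The medians sit near 0 and the called genes, Fkbp5 and Cebpb, are both in the list of regulators.

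Over the 9 arrays, the genes whose log2 signal followed Cdkn1a (1424638_at) most closely were Napepld, Crybg3, Mt1, Ipo13 and Rhou, with Pearson's r of 0.99, 0.98, 0.98, 0.98 and 0.97. Mt1, a metallothionein known to respond to metals and glucocorticoids, was 1.39 higher in DEX than in control on the log2 scale. For Gadd45b (1449773_s_at) they were Tgfb3, Pwwp3a, Art3, Tm4sf1 and Bbc3, with r from 0.95 to 0.97, and for Ccnd1 (1417420_at) they were Ucp3, Plekhb2, Rnf144b, Enpp4 and Enoph1, with r from 0.92 to 0.96. Among the members themselves, Cdkn1a ran with Gadd45b (r = 0.77) and against Cdkn1c (r = -0.89) and Ccne2 (r = -0.89). Gadd45b ran against Gadd45g (r = -0.88), and Gadd45a ran with Ccnd1 (r = 0.82). These values describe 9 arrays that share the split between control and DEX-injected mice, and are the highest of 13691 genes for the named neighbours.

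Signals of markers of other cells also differed between the groups. Of 14 proliferation markers on the array, 10 were tested and limma called 0 in any comparison, while Rank Product called 1, Plk1, higher in DEX + TE than in DEX, at signals of 95.6, 55.8 and 44.7 against 2.39, 8.47 and 12.7. Unadjusted p-values under 0.05 numbered 1 higher and 1 lower in DEX against control. By value, 5 tested markers were higher and 5 lower in DEX against control. These counts were 6 and 4 in DEX + TE against DEX, and 9 and 1 in DEX + TE against control. The medians were -0.0148, 0.276 and 0.316, beside -0.0326, 0.0382 and 0.0244 over all genes. Tpx2, from the study's FoxO3 list and named after its values were seen, averaged 179.6, 391.2 and 347.8 in control, DEX and DEX + TE. All its DEX and DEX + TE arrays were above all controls. Mki67 and Cdk1, which define dividing cells, were below a signal of 50 on all 9 arrays. Pcna, which binds p21 and the GADD45 proteins, averaged 1943 ± 57.2, 1991 ± 131 and 1987 ± 124 (SD, n = 3) in the control, DEX and DEX + TE groups. The summed signal of the proliferation markers ranged from 2919 to 3324 in the control group, from 3152 to 4112 in the DEX group and from 3218 to 3678 in the DEX + TE group, and most of it was Pcna. Without Pcna it ranged from 949 to 1343, from 1010.3 to 2199.7 and from 1362 to 1575. The sum of 13 fibroblast markers did not overlap between control (45798 to 66686) and DEX (33237 to 43834) and was 55149 to 61758 in DEX + TE, and without Gsn, the brightest, control and DEX still did not overlap. Of these 13, 3 fell with DEX by limma's call (Col1a1, Col3a1 and Pcolce), and 12 were lower by value. The 10 fiber markers summed to 539896 to 751965 in control, 430199 to 540127 in DEX and 523613 to 565813 in DEX + TE, with 0 called and 8 lower in DEX at an unadjusted p under 0.05.

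The sum of 10 satellite cell and myoblast markers was nearly all Des, which fibers also express (26557 to 32847, 27352 to 30754 and 28213 to 30358). Without Des it ranged from 2803 to 2824 in control, from 2161 to 2807 in DEX and from 2593 to 3304 in DEX + TE. Among its genes, Vcam1 at -0.78 and Chodl at -0.75 were lower and Cdh15 at 0.48 higher in DEX than in control without overlap, and limma called 0 of the 10 there. Macrophage and leukocyte markers (15 genes) summed to 2675 to 4076, 2136 to 3206 and 3392 to 3715, and those of DEX + TE lay above those of DEX. Without Csf1r, the brightest, the DEX sums (1702 to 2619) and DEX + TE sums (2605 to 2940) overlapped. Endothelial markers (14 genes) summed to 11898 to 13023, 10722 to 12042 and 11587 to 11814. Adipocyte markers (10 genes) summed to 26398 to 29047, 20979 to 25941 and 27494 to 33016, and most of this was Fabp4, which was lower in DEX than in control, at -0.40. Without Fabp4 the sums were 4816 to 6235, 5812 to 7956 and 8987 to 13010.4. By value 6 of the 10 adipocyte genes were higher and 4 lower in DEX against control, with a median of 0.47, and Adipoq was at 1.23 and Pck1 at 1.89. Smooth muscle and pericyte markers (9 genes) summed to 36325 to 42307, 32426 to 38724 and 34364 to 38650.3, and Schwann cell and nerve markers (6 genes) to 3599.8 to 3998, 3176 to 4200.0 and 3597 to 6162. In these lists no gene was below 50 on all arrays. In DEX + TE against DEX, limma called 0 genes of any marker list. The other calls were Cldn5 higher in both DEX-injected groups against control, and in DEX + TE against control Adipoq and Retn higher and Vcam1 and Col3a1 lower. By value, all 13 fibroblast, 15 macrophage and leukocyte and 10 adipocyte markers were higher in DEX + TE than in DEX. Their medians were 0.57, 0.56 and 0.51, beside 0.04 over all genes. Limma's unadjusted p was under 0.05 for 9, 5 and 3 of them, against 7.46% of all genes. All 6 Schwann cell and nerve markers were also higher by value, with a median of 0.30. Of the fiber markers 9 were higher and 1 lower, with a median of 0.17. Of the satellite cell and myoblast markers 7 were higher and 3 lower, with a median of 0.05. Of the endothelial markers 8 were higher and 6 lower, and of the smooth muscle and pericyte markers 4 and 5. The part of these shifts in the values of the 10 genes was not tested.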

How the data were processed

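Total RNA (250 ng) from the tibialis anterior of 9 mice was hybridised to Affymetrix arrays, 1 mouse per array. The authors deposited 1 table of linear signal intensity for 45101 probe sets, each array scaled to a mean of 500 after trimming 2% at each end. The study's methods name RMA, which gives log2 values, so which program made the table was not given in the sources used here. Array medians were 71.3 to 95.0. The number of arrays limits the precision.

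From the intensities, log2 was taken with no offset after removing 64 manufacturer controls. Probe sets with a group mean log2 of at least log2 of 50 in 1 or more groups (29269) were fitted with limma 3.58.1 in R 4.3.3, with the 9 arrays sharing 1 spread, Benjamini-Hochberg adjustment and the study's thresholds of 0.05 and 0.6. The fit was tested on simulated data for DEX against control, in which 100 probe sets were given a true shift. It found 39 of them when the log2 shift was 1 and 67 when it was 2, with 6 false calls each time. With no shift added, 0 were called. An uncalled probe set can therefore still differ by such a size. Rank Product (100 permutations), other scalings, filters, an offset of 16, a mean-variance trend, 6 arrays only, a replicate block and leaving out each array were alternatives. Of the probe sets, 34945 had 1 symbol in the platform annotation, 932 several and 9160 none. 34741 of those with 1 symbol were found in the RefSeq gene table.

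The members and gene lists were chosen with earlier results of these data known. All members were named with every probe set. Of each pathway list, called genes were named and otherwise the 3 with the largest DEX against control difference, of marker lists up to 3 with the highest mean, and for Cdkn1a, Gadd45b and Ccnd1 the 5 genes most correlated over the arrays. Other names are marked as chosen after their values were seen, apart from marker genes that were called or bear on a member. The limma p-values weigh each difference against the spread between these mice, pooled over the 3 groups. As these mice were near their group's average weight, that spread may not be that of all mice in the study.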

Additional observations from a re-analysis of the deposited data

How the results depend on the processing

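The number of member probe sets called for DEX against control, 2 in the report, was 1 with median centring of the arrays, 3 with quantile normalization or an offset of 16, 5 with a group mean of at least 100, 6 with a mean-variance trend, and 0 with no filter, with only the 6 arrays compared, with the replicate block or by Rank Product. Leaving out 1 array gave 0 to 2. Calls over all probe sets moved too, from 147 (0.502%) to 111 (0.38%) with median centring, 214 (0.731%) with the offset, 341 (1.59%) with the higher filter, 563 (1.92%) with the trend, 53 (0.118%) with no filter, 18 (0.0615%) with 6 arrays, 41 (0.14%) with the block and 51 to 101 leaving out 1 array. For DEX + TE against control, 0 in the report, it was 4 with the trend, 2 with 6 arrays and 0 to 2 leaving out 1 array, with 409 (1.40%), 55 (0.188%) and 31 to 87 of all probe sets called, against 111. For DEX + TE against DEX it was 0 in every alternative run. Pathway genes called for DEX against control, 1 in the report, numbered 5 with the mean of at least 100, 7 with the trend, 3 with the offset, 0 with 6 arrays or Rank Product, and 0 to 2 leaving out 1 array. For DEX + TE against control, 2 in the report, they numbered 5, 9 and 1 with the mean of at least 100, the trend and 6 arrays, 0 with no filter, the replicate block or Rank Product, and 0 to 2 leaving out 1 array. Fewer probe sets enter the adjustment with the higher filter, and fewer arrays give the spread with 6. For the rest the cause was not tested.

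Replicate numbers did not pair the samples: same-numbered arrays deviated together with correlations of only -0.02 to 0.05, and 3 of 9 arrays correlated best with their own number. Median centring moved the median of all probe sets in DEX + TE against DEX from 0.05 to -0.21, and in DEX against control from -0.03 to 0.08. Log2 differences of the brightest probe sets that changed sign were uncalled. In DEX against control, Cdkn1b became 0.013 with median centring and 0.59 with its other probe set, Ccnd2 0.071 without the first DEX array and 0.070 with another probe set, and Ccng1 0.054 with quantile normalization and 0.11 with another probe set. In DEX + TE against DEX, Cdkn1b became -0.24 with median centring and -0.056 to 0.069 leaving out 1 array, Gadd45a -0.56 to 0.013 leaving out 1 array (0.013 without the third DEX array), Ccnd2 -0.16 with median centring and -0.14 to 0.24 leaving out 1 array (-0.14 without the first DEX array), and Ccng1 -0.21 with median centring, -0.040 with quantile normalization and -0.057 with another probe set. In DEX + TE against control, Cdkn1b was 1.35 with its other probe set, Ccnd2 -0.16 to 0.078 leaving out 1 array (0.078 without the first DEX + TE array) and 0.050, 0.16 and 0.51 with other probe sets, and Ccng1 0.014 with quantile normalization and 0.12 with another probe set. Some of the 17 alternatives could not change a direction, because they leave the means of the compared groups as they are. These were the other filters, the mean-variance trend, the replicate block, only the arrays compared, and leaving out an array of another group. Over the remaining alternatives, Cdkn1a, Cdkn1c, Gadd45b, Gadd45g, Ccnd1 and Ccne2 kept their direction in all 3 comparisons. In DEX + TE against DEX their sizes moved by over 1.5 times: they ran from -0.95 to -0.27 for Cdkn1a, 0.0084 to 0.32 for Cdkn1c, -0.68 to -0.17 for Gadd45b, 0.16 to 0.96 for Gadd45g, -0.72 to -0.091 for Ccnd1 and 0.13 to 0.47 for Ccne2. The DEX against control values ran from 1.46 to 2.14 for Cdkn1a, 1.29 to 1.77 for Gadd45b, -2.78 to -1.98 for Gadd45g and -0.94 to -0.75 for Ccne2.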
